A study of Mus musculus with 12 samples.

Results

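The histone genes of mouse hematopoietic stem cells (HSCs) were examined in 12 RNA-seq libraries. The members were all 70 features of the deposited table whose symbol starts with Hist1h, Hist2h, Hist3h or Hist4h, here called replication-dependent, and 8 genes of histone variants: H1f0, H1fx, H2afx, H2afz, H2afv, H2afy, H3f3a and H3f3b. These are 78 of the 46986 features in the table. Each library was made from 2000 sorted HSCs from the bone marrow of C57BL/6 mice labelled as 12 weeks old, and each of 4 groups had 3 libraries. ABX 5-FU mice had received both antibiotics and 5-fluorouracil (5-FU), ABX mice antibiotics alone, Ctrl 5-FU mice 5-FU alone, and Ctrl mice neither agent. The antibiotics (vancomycin, metronidazole, neomycin and ampicillin) were in the drinking water for 4 to 6 weeks. The 5-FU dose was 200 mg/kg intravenously, and cells were taken on day 12 after it. The design asks how HSCs respond to 5-FU with and without antibiotics. The sources used here state neither the sort gates nor how many animals stand behind a library, so p-values measure the spread between these libraries, part of which may be technical.

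Histones are the proteins that package DNA. Pairs of H2A, H2B, H3 and H4 form the nucleosome core, and H1 binds the linker DNA between nucleosomes. The replication-dependent genes lie in clusters, are transcribed mainly during S phase, and make mRNAs that normally end in a conserved stem-loop in place of a poly(A) tail. The variant genes lie apart, are expressed outside S phase as well, and make mRNAs with a poly(A) tail. 5-FU is an antimetabolite that kills cycling cells, after which the surviving HSCs divide to restore the blood. The library kit, SMART-Seq v4, primes on poly(A), so for replication-dependent genes a value here is a level of RNA that this priming reached, and not of all their mRNA.

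The replication-dependent genes lie on chromosome 13 (56 genes), chromosome 3 (10), chromosome 11 (3) and chromosome 6 (1). They comprise 6 genes of H1, 20 of H2A, 19 of H2B, 12 of H3 and 13 of H4, of which 2 are annotated as pseudogenes. The stem-loop is shown because it is the sequence that sets this class apart. In GENCODE M21 (GRCm38) the stem-loop consensus, a stem of 6 base pairs closing a loop of 4 bases, was found on the sense strand of the representative transcript of 45 of the 70 genes, against 86 of 55450 genes (0.155%) in the annotation as a whole. Some of the other transcripts are annotated for little more than the coding part, such as that of Hist1h2ai (390 of 393 bases). A stem-loop beyond the coding part could not be found there. The consensus took 8 forms, of which 4 follow with the stem in capitals and the loop in lower case. The first is that of 25 genes, among them Hist1h2ap, Hist1h1c and Hist3h2a.
Stem-loop of 25 genes of H1, H2A, H2B and H3: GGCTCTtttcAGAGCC
Stem-loop of 7 genes of H4, among them Hist1h4d: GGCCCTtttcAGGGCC
Stem-loop of 6 genes, among them Hist1h2bb and Hist1h3e: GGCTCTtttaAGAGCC
Stem-loop of Hist1h4i and Hist2h4: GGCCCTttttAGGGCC
The H4 stem-loops thus differ within the stem from those found in the other replication-dependent genes. Among the variants, H2afx alone had the consensus, with the same stem as Hist1h4d, 822 bases before the end of its annotated transcript.

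Promoters are shown for 4 members whose changes are described in the text, from 250 bases before to 50 bases after the annotated start (RefSeq, GRCm38.p6). RefSeq promoters matched 69 of the 78 members. Capitals mark, on either strand, the box CCAAT, the TATA letters (TATAAA) and the octamer bound by POU factors (ATTTGCAT), and no 2 of these motifs overlapped. Hist1h1b and Hist1h2ab had lower RPKM after 5-FU, and Hist3h2a and H1f0 had higher RPKM.
Hist1h1b, chr13:21780576-21780875, minus strand: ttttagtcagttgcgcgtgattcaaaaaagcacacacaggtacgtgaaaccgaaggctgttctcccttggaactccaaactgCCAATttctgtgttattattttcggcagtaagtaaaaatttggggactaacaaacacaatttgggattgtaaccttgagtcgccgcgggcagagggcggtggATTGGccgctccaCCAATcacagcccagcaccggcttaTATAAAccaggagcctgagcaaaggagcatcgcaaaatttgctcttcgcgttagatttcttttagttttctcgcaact
Hist1h2ab, chr13:23750838-23751137, plus strand: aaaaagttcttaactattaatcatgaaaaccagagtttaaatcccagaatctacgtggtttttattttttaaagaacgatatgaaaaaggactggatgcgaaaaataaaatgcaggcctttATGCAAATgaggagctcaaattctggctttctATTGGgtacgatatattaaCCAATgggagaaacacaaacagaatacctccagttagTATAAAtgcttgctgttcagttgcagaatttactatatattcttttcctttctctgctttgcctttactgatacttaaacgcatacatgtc
Hist3h2a, chr11:58954435-58954734, plus strand: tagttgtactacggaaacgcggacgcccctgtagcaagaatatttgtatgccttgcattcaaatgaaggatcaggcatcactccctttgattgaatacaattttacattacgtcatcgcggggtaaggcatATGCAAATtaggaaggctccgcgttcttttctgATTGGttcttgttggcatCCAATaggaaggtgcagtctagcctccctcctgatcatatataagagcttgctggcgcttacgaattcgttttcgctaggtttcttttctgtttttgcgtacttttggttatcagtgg
H1f0, chr15:79027962-79028261, plus strand: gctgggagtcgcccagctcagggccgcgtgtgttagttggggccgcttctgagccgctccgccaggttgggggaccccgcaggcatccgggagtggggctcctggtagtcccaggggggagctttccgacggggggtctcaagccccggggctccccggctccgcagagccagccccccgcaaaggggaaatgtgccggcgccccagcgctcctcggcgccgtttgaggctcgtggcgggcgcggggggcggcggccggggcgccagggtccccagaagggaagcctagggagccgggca
CCAAT was in 85.7% of 63 replication-dependent promoters and 57.1% of 7 variant promoters, against 37.4% of all 32851 promoters in the table. TATAAA was in 55.6% of the replication-dependent and 14.3% of the variant promoters, against 13.6% of all promoters. The octamer was in 22.2% of the replication-dependent and 14.3% of the variant promoters, against 1.7% of all promoters. The H1f0 window held none of the 3 motifs. Of the 14 replication-dependent genes called lower in ABX 5-FU libraries against ABX libraries, all 14 promoters held CCAAT and 10 held TATAAA. Of the 5 called higher, 3 had a promoter in the table, with CCAAT in 3 and TATAAA in 1. A motif match is a description of these letters and not a bound site.

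Library depth, estimated from the RPKM value of 1 read, was 31.8 to 38.6 M reads in ABX 5-FU libraries, 29.2 to 37.8 M in ABX, 27.9 to 54.1 M in Ctrl 5-FU and 44.2 to 54.8 M in Ctrl libraries. The HSC label was checked against 10 markers, all detected, which summed to 206 to 233 RPKM in ABX 5-FU, 166 to 206 in ABX, 226 to 246 in Ctrl 5-FU and 192 to 206 in Ctrl libraries. Markers of other blood cells were not at 0. The 9 erythroid markers summed to 167 to 511 RPKM in ABX 5-FU, 40.1 to 58.2 in ABX, 144 to 230 in Ctrl 5-FU and 28.6 to 305 in Ctrl libraries. The 9 mature neutrophil markers summed to 11.5 to 34.2 RPKM in ABX 5-FU, 8.50 to 18.2 in ABX, 33.1 to 249 in Ctrl 5-FU and 8.66 to 19.3 in Ctrl libraries. The 6 megakaryocyte markers summed to 102 to 123 RPKM in ABX 5-FU, 82.99 to 87.5 in ABX, 94.5 to 392 in Ctrl 5-FU and 55.4 to 143 in Ctrl libraries, and the T-cell genes Cd3e and Cd3g were listed at 0 in all 12 libraries. The 8 lymphoid markers, these included, summed to 43.1 to 47.9 RPKM in ABX 5-FU, 36.1 to 42.8 in ABX, 47.4 to 67.02 in Ctrl 5-FU and 37.8 to 52.5 in Ctrl libraries. The 6 macrophage markers summed to 22.9 to 29.5 RPKM in ABX 5-FU, 7.99 to 23.2 in ABX, 18.8 to 25.2 in Ctrl 5-FU and 8.09 to 16.9 in Ctrl libraries. The erythroid, megakaryocyte and lymphoid sums were thus higher in every ABX 5-FU library than in every ABX library, the HSC, neutrophil and macrophage sums were higher in every Ctrl 5-FU library than in every Ctrl library, and their part in the histone results was not tested. Ctrl 5-FU replicate 1 stood apart: its log values correlated at 0.972 and 0.971 with the other 2 Ctrl 5-FU libraries across features, while other pairs within a group correlated at 0.985 to 0.993. Counts that rest on it are given with and without it.

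Replication-dependent RNA had its highest mean level in ABX libraries and was lower in ABX 5-FU libraries, while the summed variant RNA of the groups overlapped. The 70 replication-dependent genes summed to 610, 702 and 864 RPKM in ABX 5-FU libraries and to 1016, 1454 and 1953 RPKM in ABX libraries. They summed to 565, 575 and 1002 RPKM in Ctrl 5-FU libraries and to 811, 948 and 1193 RPKM in Ctrl libraries. ABX 5-FU and ABX libraries did not overlap, whereas Ctrl 5-FU replicate 1 lay inside the range of the Ctrl libraries. The 8 variant genes summed to 756 ± 23.0 RPKM in ABX 5-FU, 775 ± 75.4 in ABX, 676 ± 72.9 in Ctrl 5-FU and 704 ± 79.9 in Ctrl libraries (SD, n = 3 each). The replication-dependent share of the RPKM of these 78 genes was 48.7% ± 4.2 in ABX 5-FU and 64.7% ± 5.4 in ABX libraries. It was 50.5% ± 5.5 in Ctrl 5-FU and 58.1% ± 2.3 in Ctrl libraries. This total leaves out 10 further variant genes, described below, whose sum had group means of 397 to 468 RPKM. In these bulk samples, fewer cells in S phase and less histone RNA per cell cannot be told apart.

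**Figure D1:**
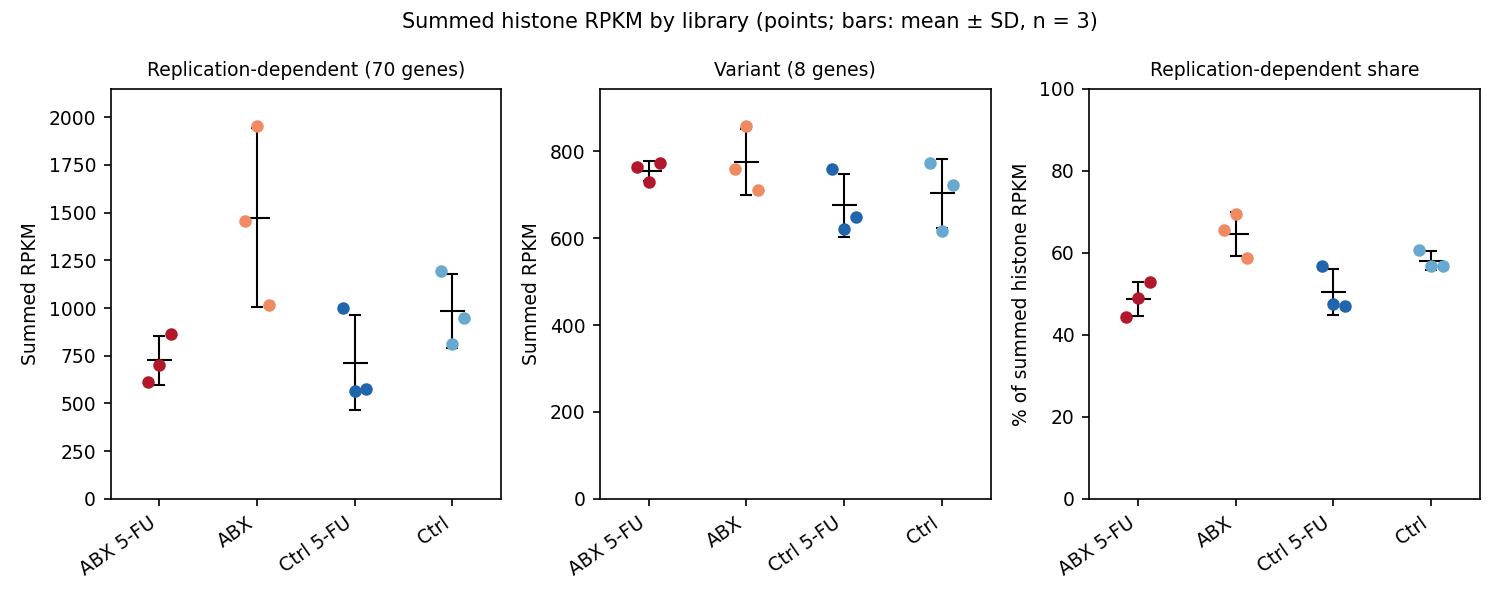
Summed RPKM of the 70 replication-dependent genes (left) and 8 variant genes (middle), and the replication-dependent share of their total in percent (right), for each library, with the mean and SD of 3 libraries per group. ABX libraries lie at 1016 to 1953 RPKM in the left panel, above all ABX 5-FU libraries, and the middle panel shows overlapping groups.

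One gene carried most of the replication-dependent sum. Hist1h2ap, an H2A gene of 1 exon at chr13:21833026-21833507 (mm10, minus strand), made up 53.6% to 73.9% of it. It had 327, 390 and 540 RPKM in ABX 5-FU libraries and 998, 1224 and 657 RPKM in ABX libraries. It had 700, 350 and 388 RPKM in Ctrl 5-FU libraries and 882, 554 and 689 RPKM in Ctrl libraries. The 2 antibiotic-treated groups did not overlap, while the 2 groups without antibiotics did. Of the 50-base stretches of its transcript, 93.1% also occur in another gene, most often Hist1h2ao, which averaged 0.272 RPKM, so the split of reads between such copies is uncertain. Without Hist1h2ap the sum was 307 ± 21.3 RPKM in ABX 5-FU, 514 ± 191 in ABX, 235 ± 59.8 in Ctrl 5-FU and 276 ± 30.6 in Ctrl libraries.

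Few members had high levels. Of the 70 replication-dependent genes, 15 averaged at least 5 RPKM over the 12 libraries and 2 at least 50 RPKM (Hist1h2ap and Hist1h4d). Of the 8 variants, 5 averaged at least 50 RPKM. H2afz (229.8 RPKM over the 12 libraries) and H3f3b (224 RPKM) had the highest means, ahead of H1f0 (119.5 RPKM). Tests used the 8553 features that reached 1 RPKM in 3 or more libraries, which kept 38 replication-dependent genes (5 H1, 12 H2A, 8 H2B, 7 H3 and 6 H4) and all 8 variants. The 32 genes that did not pass stayed at or below 2.25 RPKM in every library, and Hist1h1t, the testis H1, and Hist1h2ba, the testis H2B, were listed at 0 throughout. A gene high in 1 group only could pass the filter through that group, so counts over the 38 describe those genes and not all members.

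With antibiotics, more replication-dependent genes fell than rose after 5-FU, and without antibiotics few were called in either direction. Changes are log2 differences on the log2(RPKM + 1) scale from limma, called at a Benjamini-Hochberg adjusted p under 0.05 over all 8553 features. In ABX 5-FU against ABX libraries, 14 of the 38 tested genes fell, against 16.5% of all features, and 5 rose, against 13.7% of all features. The share that fell was above that of all features, while the share that rose was near it. In Ctrl 5-FU against Ctrl libraries, 3 fell, against 11.8% of all features, and 3 rose, against 9.74%. Both of these shares were below those of all features. The median log2 change over the 38 genes was -0.50 in the comparison with antibiotics and -0.04 in that without, where the medians of all features were -0.01 and 0.00. With each library scaled to one total RPKM, which moved the medians of all features to 0.12 and 0.14, the split was 5 higher and 11 lower with antibiotics and 5 higher and 2 lower without. Of the variants, 2 rose (H1f0 and H3f3b) and 2 fell (H2afx and H2afz) with antibiotics, and H1f0 alone rose without. All 7 members called without antibiotics were among the 23 called with antibiotics, each in the same direction. These 2 comparisons share no library but were fitted in 1 model with 1 estimate of the spread of each gene. Their calls are thus not independent, and the share of all features called in both is not given here. The difference between the 2 responses was tested as an interaction and called in none of the 46 tested members by limma, against 1 of 8553 features (0.0117%). At an unadjusted p under 0.05 the interaction had 8 replication-dependent genes, 7 with a more negative and 1 with a more positive change under antibiotics (against 4.3% and 4% of all features), and 2 variants, both more positive.

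**Figure D2:**
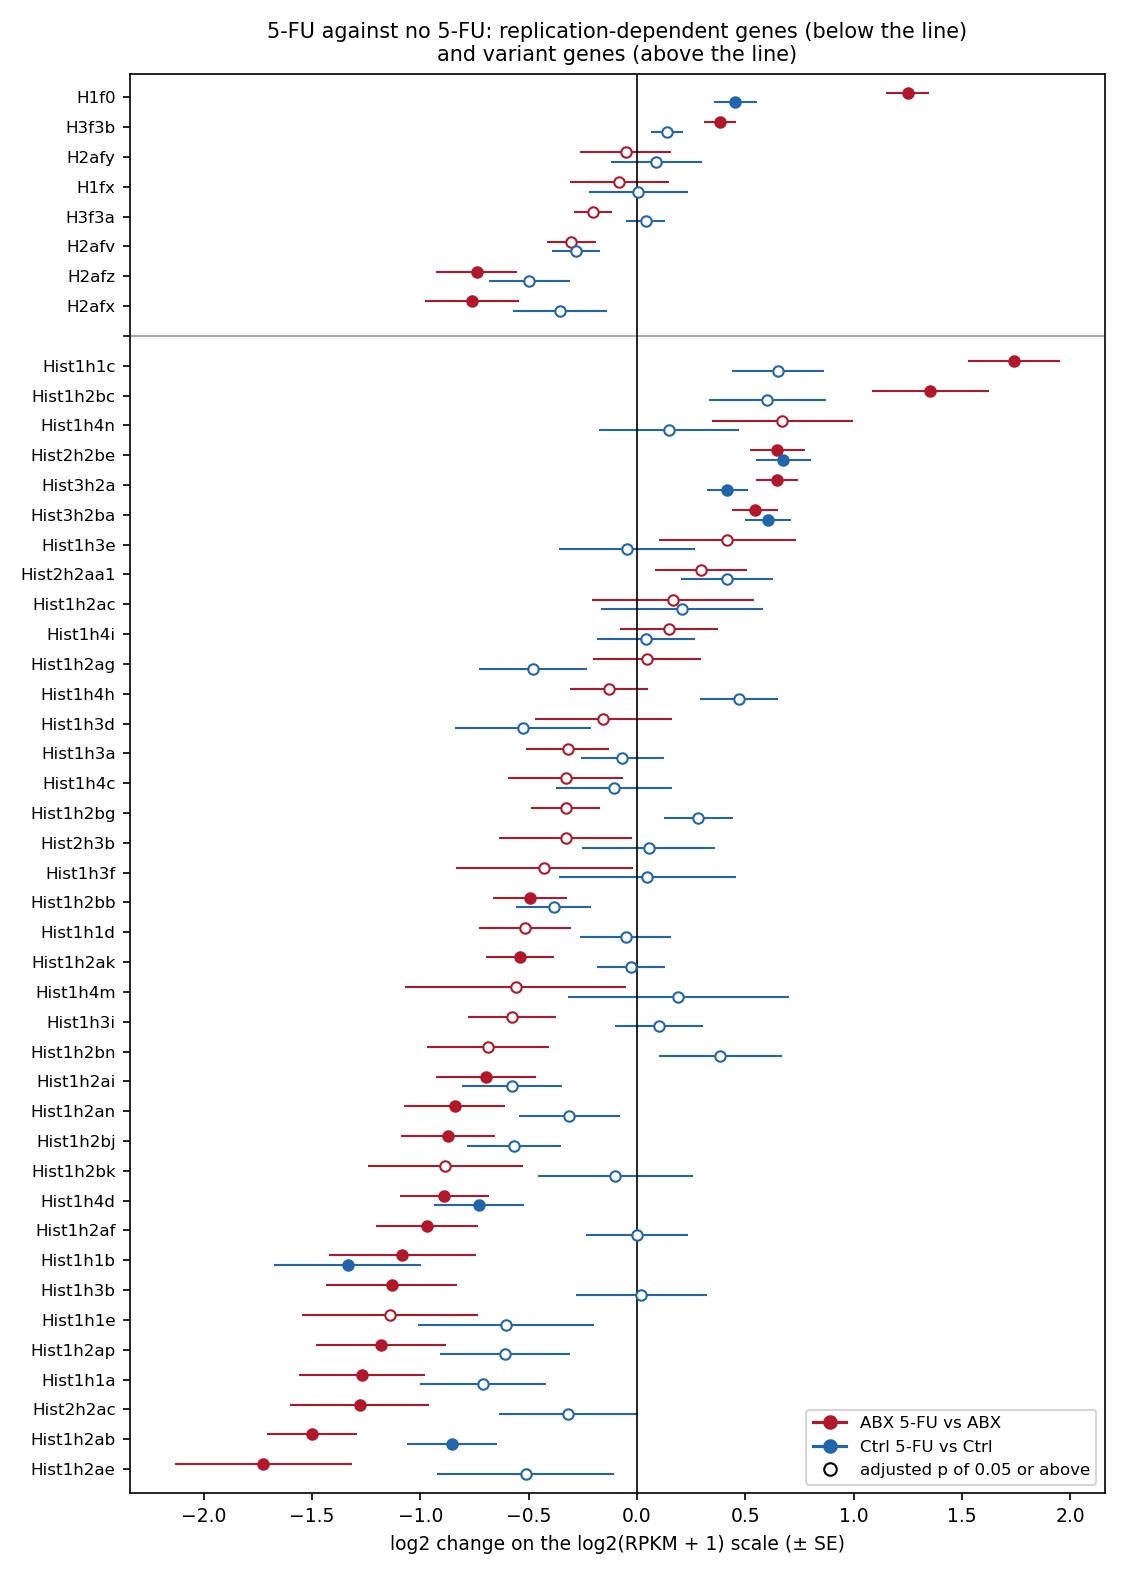
Log2 change after 5-FU (± SE) of the 46 tested histone genes in ABX 5-FU against ABX (red) and Ctrl 5-FU against Ctrl (blue), on the log2(RPKM + 1) scale, with filled points for adjusted p under 0.05. The filled red points are 14 lower and 5 higher replication-dependent genes, and all filled blue points lie on the same side of 0 as the red point of that gene.

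Single libraries weighed on these counts. The shares of all features called with a library left out are not given here. Whether the shifts below are particular to histone genes was thus not tested. Without ABX replicate 2, the ABX library with the highest replication-dependent sum, 10 of the 38 genes were called in ABX 5-FU against ABX (5 higher and 5 lower), and 2 variants. Without Ctrl 5-FU replicate 1, 11 were called in Ctrl 5-FU against Ctrl (3 higher and 8 lower), and without Ctrl 5-FU replicate 3, 4. In that comparison 3 variants were called without Ctrl replicate 2 (1 higher and 2 lower), and 2 without Ctrl 5-FU replicate 1 (1 higher and 1 lower). The 5 genes that rose under antibiotics kept their calls whichever of the 12 libraries was left out, as did 5 of the 14 that fell (Hist1h1a, Hist1h2ab, Hist1h2ae, Hist1h2af and Hist1h4d). Without antibiotics this held for Hist2h2be, Hist3h2a, Hist3h2ba, Hist1h2ab and H1f0. Of these genes, Hist1h2af passed the filter mainly through the ABX libraries, where it was highest.

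Of the 5 tested replication-dependent H1 genes, 1 rose and 2 fell with antibiotics, against 13.7% and 16.5% of all features, and 0 rose and 1 fell without, against 9.74% and 11.8%. Hist1h1c, which encodes H1.2, had 40.3, 26.9 and 26.3 RPKM in ABX 5-FU libraries and 7.61, 9.55 and 8.27 RPKM in ABX libraries. Without antibiotics, it had 24.4, 13.1 and 15.7 RPKM in Ctrl 5-FU libraries against 8.87, 11.6 and 11.5 RPKM in Ctrl libraries. Every 5-FU library was above every library without 5-FU. The rise was called with antibiotics (log2 change 1.74 ± 0.21 SE, adjusted p = 0.000398 by limma), while without them the value was 0.65 ± 0.21 (adjusted p = 0.0501). Hist1h1b, which encodes H1.5, had 11.2, 15.8 and 16.5 RPKM in ABX 5-FU libraries and 40.6, 29.2 and 26.2 RPKM in ABX libraries. Ctrl 5-FU libraries had 11.6, 3.27 and 4.68 RPKM of it, against 20.8, 15.4 and 12.8 RPKM in Ctrl libraries. The groups did not overlap in either comparison, and both falls were called (log2 change -1.08, adjusted p = 0.0326 with antibiotics, and -1.34, adjusted p = 0.0185 without, by limma). The call with antibiotics was lost without ABX replicate 1 or 2 or any 1 of the ABX 5-FU libraries (adjusted p of 0.0535 to 0.103). The call without antibiotics was lost without Ctrl replicate 1 or Ctrl 5-FU replicate 2 or 3 (adjusted p of 0.0571 to 0.0677).

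Hist1h1a, which encodes H1.1, had 2.72, 1.86 and 1.97 RPKM in ABX 5-FU libraries against 5.52, 12.7 and 3.94 RPKM in ABX libraries, a fall of 1.27 on the log2 scale (adjusted p = 0.00813 by limma). It had 0.948, 0.516 and 0.934 RPKM in Ctrl 5-FU libraries against 1.65, 1.85 and 2.32 RPKM in Ctrl libraries, also without overlap, but the difference was not called (adjusted p = 0.101 by limma). Hist1h1e, which encodes H1.4, had the highest mean RPKM of the replication-dependent H1 genes in ABX, Ctrl 5-FU and Ctrl libraries, while in ABX 5-FU libraries Hist1h1c averaged 31.2 RPKM and Hist1h1e 30.01 RPKM. Hist1h1e had 26.0, 29.5 and 34.5 RPKM in ABX 5-FU libraries and 52.4, 149.7 and 37.9 RPKM in ABX libraries. The ABX group spread widely through replicate 2, and the difference was not called (log2 change -1.14 ± 0.41 SE, adjusted p = 0.0534 by limma). In Ctrl 5-FU libraries Hist1h1e had 28.9, 24.4 and 15.2 RPKM, against 43.0, 29.4 and 31.3 RPKM in Ctrl libraries (adjusted p = 0.305 by limma). Hist1h1d, which encodes H1.3, had 6.54 to 7.88 RPKM in ABX 5-FU, 6.91 to 16.3 in ABX, 3.56 to 4.07 in Ctrl 5-FU and 3.67 to 4.51 in Ctrl libraries, with no call for 5-FU.

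H1f0 encodes H1.0, a linker variant known to accumulate in differentiating and non-dividing cells, and its annotated transcript has 1 exon with a poly(A) signal. It had 181, 171 and 179 RPKM in ABX 5-FU libraries and 70.3, 66.1 and 86.2 RPKM in ABX libraries. Its values were 138, 118 and 139 RPKM in Ctrl 5-FU libraries and 97.7, 92.2 and 97.0 RPKM in Ctrl libraries. The 5-FU libraries thus lay above the others in both comparisons, and both rises were called (log2 change 1.25, adjusted p = 2.74e-05 with antibiotics, and 0.45, adjusted p = 0.01 without, by limma). As a share of the RPKM of all 8 H1 genes, H1f0 held 67.1% ± 0.44 in ABX 5-FU, 36.9% ± 13.7 in ABX, 71.8% ± 5.5 in Ctrl 5-FU and 58.5% ± 2.8 in Ctrl libraries (SD, n = 3 each). Among the 6 replication-dependent H1 genes, Hist1h1c held 36.5% ± 8.6 in ABX 5-FU, 6.94% ± 2.8 in ABX, 34.4% ± 4.9 in Ctrl 5-FU and 16.1% ± 4.1 in Ctrl libraries. H1fx, the variant H1X, stayed between 0.439 and 2.48 RPKM, and no change was called.

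Of the 12 tested H2A genes, 8 fell and 1 rose in ABX 5-FU against ABX libraries, where 16.5% and 13.7% of all features did. In Ctrl 5-FU against Ctrl libraries 1 fell and 1 rose, where 11.8% and 9.74% of all features did. Hist1h2ap, described above, fell by 1.18 on the log2 scale with antibiotics (adjusted p = 0.0131 by limma), a call that was lost without ABX replicate 2 (adjusted p = 0.059), and its value without antibiotics was -0.61 (adjusted p = 0.166). Hist1h2ab had 3.004, 5.13 and 5.06 RPKM in ABX 5-FU libraries and 14.9, 13.7 and 13.4 RPKM in ABX libraries. Without antibiotics, it had 4.00, 1.65 and 2.56 RPKM in Ctrl 5-FU libraries against 5.86, 5.39 and 5.36 RPKM in Ctrl libraries. The ABX libraries formed a tight group above all others, and 5-FU libraries lay below their own controls in both comparisons (log2 change -1.50, adjusted p = 0.000707 with antibiotics, and -0.85, adjusted p = 0.0156 without, by limma). Hist1h2ae had 14.5, 22.5 and 17.3 RPKM in ABX 5-FU libraries and 49.8, 133 and 34.3 RPKM in ABX libraries, and fell by 1.72 on the log2 scale (adjusted p = 0.00953 by limma). Without antibiotics the libraries of Hist1h2ae overlapped, at 16.4, 13.0 and 7.84 RPKM in Ctrl 5-FU against 21.8, 15.4 and 15.8 RPKM in Ctrl.

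Hist2h2ac, an H2A gene of the chromosome 3 cluster, had 4.04, 5.72 and 7.76 RPKM in ABX 5-FU libraries and 14.9, 19.2 and 12.2 RPKM in ABX libraries, and fell by 1.28 on the log2 scale (adjusted p = 0.0122 by limma, or 0.0536 without ABX replicate 2). Ctrl 5-FU libraries had 6.31, 1.84 and 2.04 RPKM of it, against 3.49, 4.04 and 4.40 RPKM in Ctrl libraries, which overlapped. The other 4 that fell with antibiotics, Hist1h2af, Hist1h2ai, Hist1h2ak and Hist1h2an, were low, with 0.313 to 2.31 RPKM in ABX 5-FU and 0.892 to 5.28 RPKM in ABX libraries, and 57.0% to 94.0% of their 50-base stretches occur in another gene. Hist1h2ai lost its call without ABX 5-FU replicate 1 or 3, Ctrl 5-FU replicate 2 or Ctrl replicate 3 (adjusted p of 0.0518 to 0.121 by limma). Without ABX replicate 2 or 3 or Ctrl replicate 2 it no longer passed the filter and was not tested. Hist1h2an lost its call without replicate 1 or 2 of ABX 5-FU or ABX (adjusted p of 0.05 to 0.0824), and Hist1h2ak without ABX 5-FU replicate 2 or ABX replicate 1 or 2 (adjusted p of 0.0684 to 0.081). Hist1h2af kept its call without any 1 library, but it reached 1 RPKM only in the 3 ABX libraries and Ctrl 5-FU replicate 1. It thus passed the filter mainly through the group where it was high, and its call was lost without the filter (adjusted p = 0.0501 by limma). Hist3h2a, an H2A gene on chromosome 11, was the gene that rose. It had 20.5, 20.6 and 17.9 RPKM in ABX 5-FU libraries and 12.0, 11.1 and 13.5 RPKM in ABX libraries. Its values were 21.2, 19.9 and 17.1 RPKM in Ctrl 5-FU libraries and 13.8, 14.3 and 14.5 RPKM in Ctrl libraries. No 5-FU library overlapped its controls (log2 change 0.65, adjusted p = 0.000982 with antibiotics, and 0.42, adjusted p = 0.0122 without, by limma). Hist2h2aa1 (9.19 to 20.1 RPKM) and Hist1h2ac (3.24 to 11.5 RPKM) overlapped between groups and were not called.

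The H2B genes were low, and 3 of the 8 tested rose with antibiotics, against 13.7% of all features, while 2 fell, against 16.5%. Without antibiotics 2 rose and 0 fell, against 9.74% and 11.8% of all features. Hist2h2be had 6.84, 7.76 and 7.59 RPKM in ABX 5-FU libraries against 4.46, 4.98 and 3.70 RPKM in ABX libraries (log2 change 0.65, adjusted p = 0.00379 by limma). Without antibiotics, it had 6.79, 7.58 and 9.41 RPKM in Ctrl 5-FU libraries against 5.04, 4.85 and 3.83 RPKM in Ctrl libraries (log2 change 0.68, adjusted p = 0.00508 by limma). The 2 changes were thus close in size, with all 5-FU libraries above their controls. Hist3h2ba, at chr11:58948920-58949533 (mm10) in the cluster that also holds Hist3h2a, had 5.74, 6.09 and 6.25 RPKM in ABX 5-FU libraries against 3.95, 4.56 and 3.04 RPKM in ABX libraries (log2 change 0.55, adjusted p = 0.00357 by limma). Ctrl 5-FU libraries had 6.39, 6.15 and 6.67 RPKM of it, against 3.48, 3.93 and 4.23 RPKM in Ctrl libraries (log2 change 0.60, adjusted p = 0.00372 by limma). Both groups of 5-FU libraries were again separate from their controls.

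Hist1h2bc had 8.71, 5.77 and 6.07 RPKM in ABX 5-FU libraries and 1.96, 2.28 and 1.86 RPKM in ABX libraries, and rose by 1.35 on the log2 scale (adjusted p = 0.00415 by limma). Its values were 11.6, 4.53 and 4.88 RPKM in Ctrl 5-FU libraries and 4.90, 3.08 and 3.88 RPKM in Ctrl libraries, and these groups overlapped (log2 change 0.60, adjusted p = 0.132 by limma). The 2 genes that fell, Hist1h2bb and Hist1h2bj, had 0.662 to 1.47 RPKM in ABX 5-FU and 1.62 to 3.72 RPKM in ABX libraries. The call of Hist1h2bb (adjusted p = 0.0494 by limma) was lost under 13 of 19 alternatives, with adjusted p between 0.00693 and 0.158 over all of them, and it was kept in the fits without ABX 5-FU replicate 2 or Ctrl 5-FU replicate 1 or 2 but in no other that left out a library. That of Hist1h2bj (adjusted p = 0.0119) was lost without ABX replicate 2 (adjusted p = 0.0524).

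**Figure D3:**
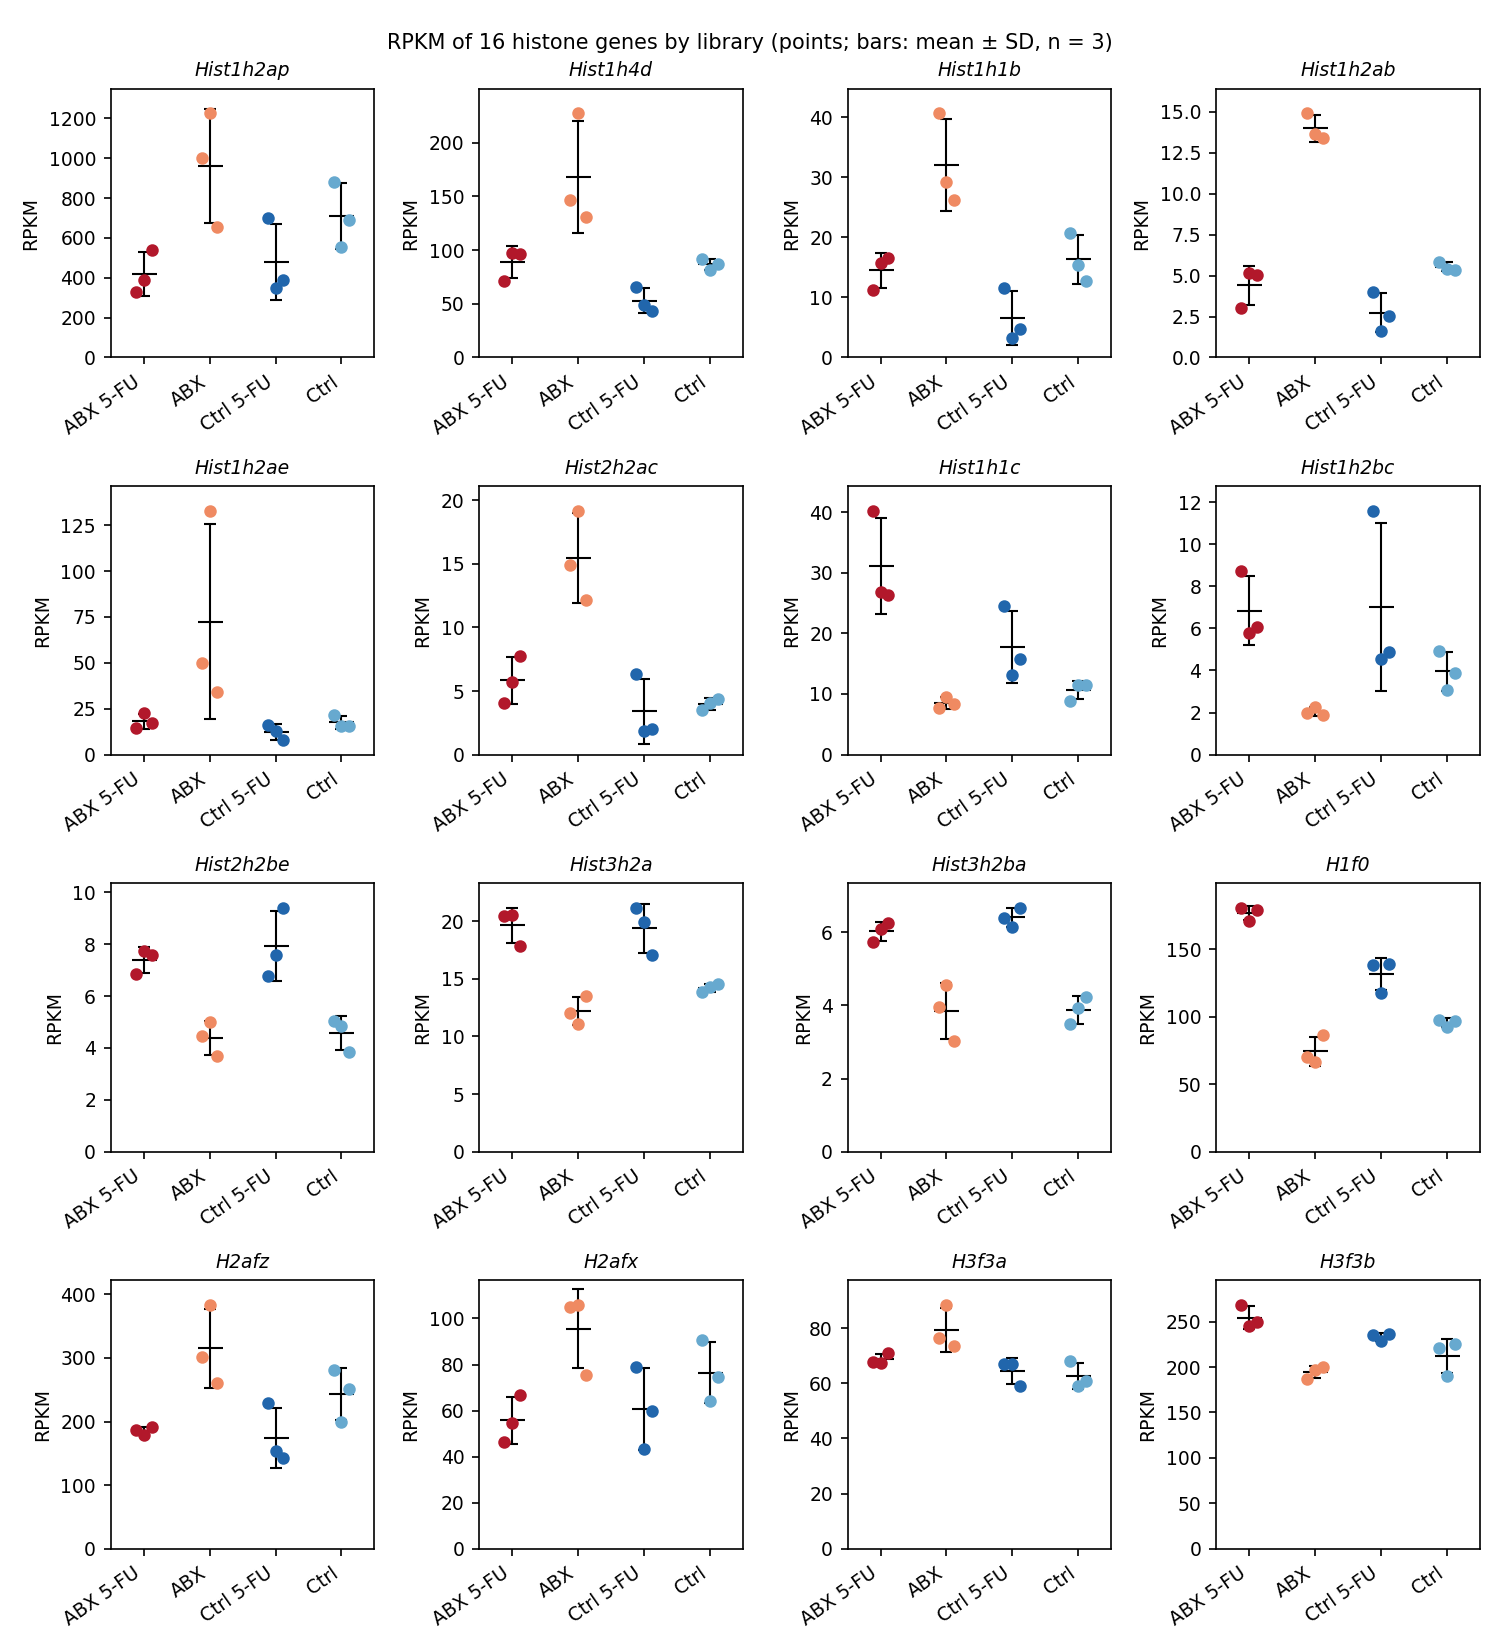
RPKM of 16 histone genes in each library, with the mean and SD of 3 libraries per group, each panel on its own linear scale from 0. The first 6 panels are replication-dependent genes that fell in ABX 5-FU against ABX libraries, the next 5 are those that rose, and the last 5 are variants, with H1f0 highest in ABX 5-FU libraries (171 to 181 RPKM).

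Of the 7 tested H3 and 6 tested H4 genes, 1 each fell with antibiotics, where 16.5% of all features fell, and 1 H4 gene fell without them, where 11.8% of all features fell. These shares are near those of all features. Hist1h4d held 81.9% ± 3.5 of the H4 RPKM in ABX 5-FU, 88.9% ± 0.68 in ABX, 73.4% ± 2.8 in Ctrl 5-FU and 82.99% ± 2.9 in Ctrl libraries. It had 71.4, 97.4 and 96.8 RPKM in ABX 5-FU libraries and 147, 227 and 130.3 RPKM in ABX libraries (log2 change -0.89, adjusted p = 0.00849 by limma). Without antibiotics, it had 65.6, 49.0 and 43.3 RPKM in Ctrl 5-FU libraries against 91.8, 81.3 and 86.9 RPKM in Ctrl libraries (log2 change -0.73, adjusted p = 0.0284 by limma). No 5-FU library overlapped its controls, but the call without antibiotics was lost when any of 4 single libraries was left out (adjusted p of 0.073 to 0.108 without Ctrl replicate 1 or 3, or Ctrl 5-FU replicate 2 or 3). Hist1h4i, the other H4 gene above 5 RPKM, had 7.41 to 9.01 RPKM in ABX 5-FU, 5.94 to 10.04 in ABX, 6.99 to 10.4 in Ctrl 5-FU and 5.37 to 10.7 in Ctrl libraries, which overlapped. Among the H3 genes, Hist1h3b fell with antibiotics, with 0.249, 0.760 and 0.950 RPKM in ABX 5-FU libraries against 1.45, 4.66 and 2.26 RPKM in ABX libraries (log2 change -1.13, adjusted p = 0.0167 by limma). Its call was lost without ABX replicate 2 (adjusted p = 0.0647) or ABX 5-FU replicate 1 (adjusted p = 0.0619), and without antibiotics the log2 change was 0.02 ± 0.30 (SE). No other H3 gene was called.

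Of the 4 H2A variants, 2 fell with antibiotics, against 16.5% of all features, and 0 were called without. Of the 2 H3 variants, 1 rose with antibiotics, against 13.7% of all features, and 0 were called without. Without antibiotics 11.8% of all features fell and 9.74% rose, so 0 calls among so few genes is near those shares. H2afz, one of 2 genes for H2A.Z, a variant placed at promoters, had 187, 179 and 191 RPKM in ABX 5-FU libraries and 301, 383 and 261 RPKM in ABX libraries. Ctrl 5-FU libraries had 229, 153 and 142 RPKM of it, against 281, 199 and 251 RPKM in Ctrl libraries. It fell with antibiotics (log2 change -0.74, adjusted p = 0.0129 by limma, or 0.0581 without ABX replicate 2), while without them the groups overlapped (-0.50, adjusted p = 0.0796). The H2afz transcript shares 69.6% of its 50-base stretches with other genes, most often Tmcc1, so the split of reads between them is uncertain. H2afv, the second H2A.Z gene, had 6.53 to 7.24 RPKM in ABX 5-FU, 7.94 to 9.63 in ABX, 6.19 to 6.87 in Ctrl 5-FU and 6.71 to 9.56 in Ctrl libraries, with no call. H2afx, which is phosphorylated at DNA breaks, had 46.4, 54.6 and 66.6 RPKM in ABX 5-FU libraries and 105, 106 and 75.7 RPKM in ABX libraries (log2 change -0.76, adjusted p = 0.0229 by limma). Its values were 79.0, 43.3 and 59.8 RPKM in Ctrl 5-FU libraries and 90.6, 64.3 and 74.4 RPKM in Ctrl libraries. The groups overlapped there, and the call with antibiotics was lost without ABX replicate 1 or 2, or ABX 5-FU replicate 1 or 2 (adjusted p of 0.0623 to 0.0855). H2afy, which encodes macroH2A1, a variant linked to silent chromatin, stayed at 2.82 to 8.11 RPKM with no call.

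H3f3a and H3f3b encode the same protein, H3.3, the H3 that is deposited independently of replication. Together they held 93.2% to 97.1% of the RPKM of the 14 H3 genes among the members. Those 14 leave out H3f3c, described below, which averaged 366 to 431 RPKM by group and shares sequence most often with H3f3a. H3f3b had 268, 245 and 249.8 RPKM in ABX 5-FU libraries and 187, 197 and 200.5 RPKM in ABX libraries, and rose by 0.38 on the log2 scale (adjusted p = 0.00332 by limma). Without antibiotics, it had 235, 228 and 236 RPKM in Ctrl 5-FU libraries against 220.4, 190.4 and 226 RPKM in Ctrl libraries. All 5-FU libraries were above their controls, but the difference without antibiotics was not called (log2 change 0.14, adjusted p = 0.195 by limma). H3f3a had 67.5 to 70.9 RPKM in ABX 5-FU, 73.4 to 88.5 in ABX, 59.0 to 67.1 in Ctrl 5-FU and 59.0 to 68.0 in Ctrl libraries, and was not called (log2 change -0.20, adjusted p = 0.104 with antibiotics, by limma). The H3f3a transcript shares 30.3% of its 50-base stretches with other genes, most often Gm17275, a lincRNA on the opposite strand at 10.2 RPKM.

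The annotated transcript ends differed between replication-dependent genes that rose and those that fell, and this was not part of how the members were chosen. Of the 5 replication-dependent genes that rose in ABX 5-FU against ABX libraries, 4 had a poly(A) signal (AATAAA or ATTAAA) in the last 50 bases of the GENCODE M21 transcript, against 1 of the 14 that fell (Hist1h2ae) and 7 of the 38 tested. Their transcripts had median lengths of 1560 bases among those that rose and 495 bases among those that fell. In Ctrl 5-FU against Ctrl libraries a poly(A) signal was found in 3 of the 3 that rose and 0 of the 3 that fell. The stem-loop consensus was found in 3 of the 5 and in 8 of the 14. Of those that fell, Hist1h2af, Hist1h2ai, Hist1h2ak and Hist1h2an are annotated with 393 to 399 bases, 390 of them coding. A stem-loop or poly(A) signal beyond the coding part could not be found in these genes. The counts and lengths thus partly describe the annotation. The table's coordinates were those of GENCODE M21 for 53 of the 78 members, among them 4 of the 5 that rose, all 4 with the signal, and 10 of the 14 that fell, none with it. The 2 sets also differed in sequence shared with other genes, with medians of 22.1% of 50-base stretches among those that rose and 57.5% among those that fell. Several of the genes that fell are copies of 1 family, so these counts describe few independent sequences, and no test of them was made. The variants called with antibiotics did not all follow the same pattern. H2afx and H2afz had the poly(A) signal and fell, H3f3b lacked it in the transcript searched and rose, and H1f0 had it and rose. Only the representative transcript of each gene was searched, and H3f3b has 4 annotated transcripts and H2afz 7. How far priming on poly(A) bears on either direction was not tested.

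**Figure D4:**
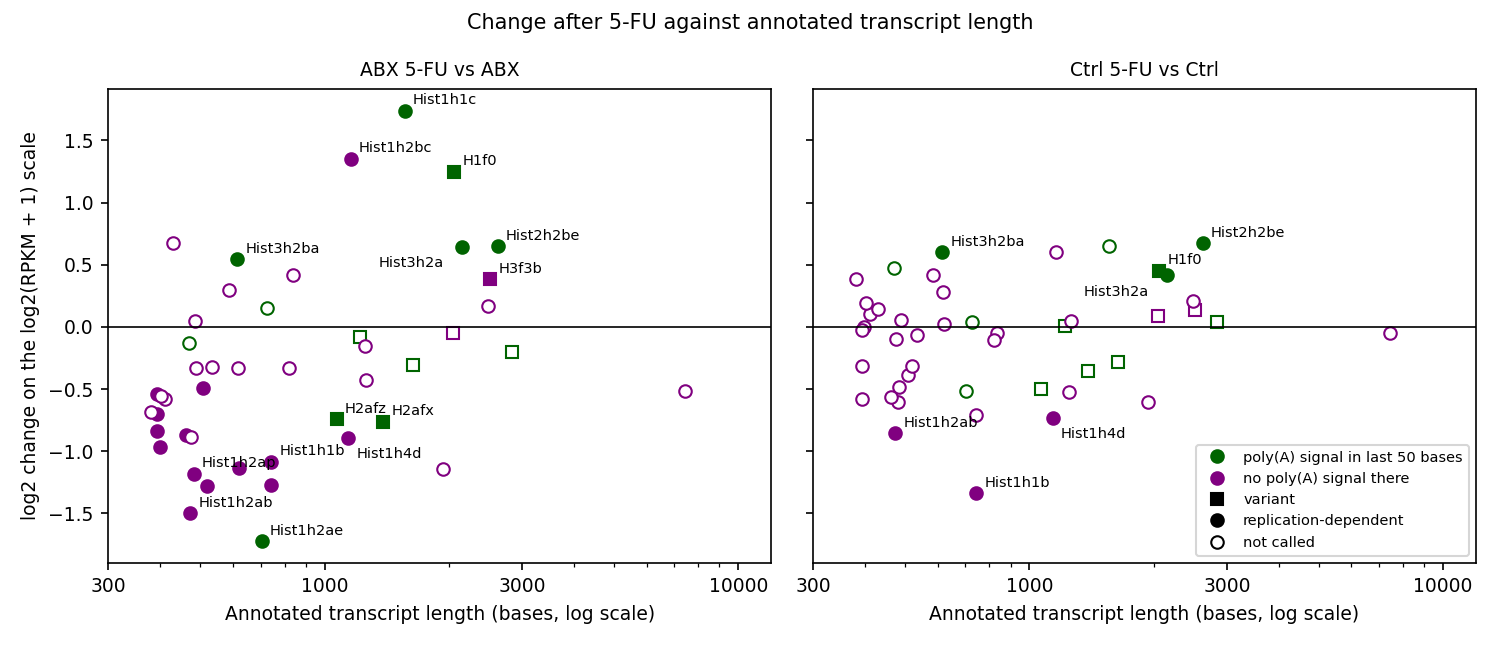
Log2 change after 5-FU (log2(RPKM + 1) scale) against annotated transcript length in bases on a log axis, for the 46 tested histone genes, in ABX 5-FU against ABX (left) and Ctrl 5-FU against Ctrl (right). Green marks a poly(A) signal in the last 50 bases, squares mark variants, and filled symbols an adjusted p under 0.05. Of the filled circles, 4 of 5 above 0 and 1 of 14 below 0 are green in the left panel.

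ABX libraries had higher values than Ctrl libraries for many replication-dependent genes, none of which passed the test. The ABX libraries also serve as controls in ABX 5-FU against ABX, so the 2 sets of values are not independent. By limma, 0 of the 46 members were called in ABX against Ctrl libraries, against 0.0702% of all features, while 16 replication-dependent genes were higher and 1 lower at an unadjusted p under 0.05, against 10.8% and 6.91% of all features. Of the 8 variants, 3 were higher and 1 lower at that p. The ABX libraries lay wholly above the Ctrl libraries for 15 of the 38 genes, against 13% of all features, and wholly below for 2, against 9.06%. The median log2 change was 0.42 over the 38 genes and 0.33 over the 8 variants, against 0.02 over all features. The smallest adjusted p values were those of Hist1h2an (log2 change 1.42, adjusted p = 0.0607 by limma), Hist1h1d (1.25, 0.0607), Hist1h2ab (1.20, 0.0664) and Hist2h2ac (1.71, 0.0819). Without Ctrl 5-FU replicate 1, Hist2h2ac (adjusted p = 0.00901), Hist1h2ab (0.0229) and Hist1h2an (0.036) were called, and without ABX replicate 3, Hist1h1d (0.00274), Hist1h2an (0.0205) and Hist1h1a (0.0335). Hist1h1d had 11.05, 16.3 and 6.91 RPKM in ABX libraries, against 3.67, 3.796 and 4.51 RPKM in Ctrl libraries. H1f0 went the other way, with 66.1 to 86.2 RPKM in ABX libraries against 92.2 to 97.7 RPKM in Ctrl libraries (log2 change -0.37, adjusted p = 0.138 by limma).

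Between ABX 5-FU and Ctrl 5-FU libraries the class median was close to that of all features. The median log2 change was 0.04 over the 38 genes and 0.12 over the variants, against 0.01 over all features, and 0 members were called, against 0.117% of all features. At an unadjusted p under 0.05, 8 replication-dependent genes were higher and 0 lower, against 7.69% and 7.21% of all features, among them 4 of the 5 tested H1 genes. Of the variants, 1 was higher and 0 lower at that p. Hist1h1b had 11.2 to 16.5 RPKM in ABX 5-FU libraries against 3.27 to 11.6 RPKM in Ctrl 5-FU libraries (log2 change 1.18, adjusted p = 0.14 by limma), and it was called without Ctrl 5-FU replicate 1 (adjusted p = 0.0306). H1f0 had 171 to 181 RPKM in ABX 5-FU against 118 to 139 RPKM in Ctrl 5-FU libraries (log2 change 0.43, adjusted p = 0.0901 by limma).

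Genes that process histone mRNA and deposit histones were described from lists of 20 and 30 genes. Slbp, the protein that binds the stem-loop, had 7.12 to 7.81 RPKM in ABX 5-FU libraries against 10.7 to 13.7 RPKM in ABX libraries (log2 change -0.65, adjusted p = 0.0053 by limma). It had 6.60 to 9.96 RPKM in Ctrl 5-FU libraries against 9.82 to 12.7 RPKM in Ctrl libraries (log2 change -0.43, adjusted p = 0.0427 by limma), a call lost under 11 of 19 alternatives (adjusted p of 0.00886 to 0.158), among them the omission of any 1 ABX 5-FU library, ABX replicate 1, Ctrl 5-FU replicate 2 or 3, or Ctrl replicate 1 or 3. Of the 19 tested genes of histone mRNA processing and decay, 0 rose and 3 fell with antibiotics, and 1 rose and 3 fell without. The share that fell was near that of all features in both comparisons (16.5% with and 11.8% without antibiotics). Slbp aside, the genes that fell in both were Ncbp2, a subunit of the cap-binding complex (log2 change -0.61, adjusted p = 0.000349 with antibiotics, and -0.46, adjusted p = 0.00225 without, by limma), and its partner Srrt (-0.68 and -0.55, adjusted p = 0.00195 and 0.00847). Cpsf2, a subunit of the cleavage complex, was the gene that rose (log2 change 0.33, adjusted p = 0.0198 by limma, or 0.0793 without Ctrl replicate 3). Npat, the coactivator of histone gene transcription, had 1.13 to 1.70 RPKM over the 12 libraries, with no call (log2 change 0.17, adjusted p = 0.138 with antibiotics, by limma).

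Of the 26 tested genes of histone chaperones and deposition, 1 rose and 16 fell with antibiotics, where 13.7% and 16.5% of all features did, and 0 rose and 10 fell without, where 9.74% and 11.8% did. The gene that rose was Tspyl1, of the nucleosome assembly protein family (log2 change 0.31, adjusted p = 0.032 by limma), named here after its value was seen. Asf1b, a chaperone that hands new H3 and H4 to the assembly factors, had 1.39, 1.47 and 1.95 RPKM in ABX 5-FU libraries against 3.83, 4.91 and 2.97 RPKM in ABX libraries (log2 change -0.90, adjusted p = 0.00575 by limma). Ctrl 5-FU libraries had 2.42, 1.27 and 1.25 RPKM of it, against 5.16, 3.36 and 3.91 RPKM in Ctrl libraries (log2 change -0.97, adjusted p = 0.00641 by limma). The 5-FU libraries were below their controls in both comparisons. Rbbp7, a histone-binding protein that partners Hat1 (log2 change -0.47 with and -0.62 without antibiotics), and Chaf1b, a subunit of the assembly factor CAF-1 (-0.44 and -0.46), also fell, with adjusted p from 0.000287 to 0.00403 by limma. Ssrp1, of the FACT complex (-0.51 and -0.32), and Hat1, which acetylates new H4 (-0.60 and -0.37), fell in both, but without antibiotics Ssrp1 lost its call without Ctrl replicate 3 (adjusted p = 0.0559) and Hat1 without Ctrl replicate 1 or 3 or Ctrl 5-FU replicate 3 (adjusted p of 0.0661 to 0.0758). Chaf1a, the large CAF-1 subunit, had 0.445 to 0.742 RPKM in ABX 5-FU against 0.820 to 2.64 RPKM in ABX libraries and fell (log2 change -0.65, adjusted p = 0.0349 by limma), a call lost without any 1 of the ABX 5-FU libraries (adjusted p of 0.0583 to 0.113). Without ABX replicate 1 or 2 or Ctrl replicate 1, Chaf1a no longer passed the filter and was not tested. Hira, which deposits H3.3, did not pass the filter, at 0.0219 to 0.0987 RPKM.

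All 18 tested genes of an S phase reference list fell in both comparisons, where 16.5% of all features did with and 11.8% without antibiotics. Their median log2 changes were -1.08 with and -0.77 without antibiotics. Mcm7, of the replicative helicase, fell by 1.31 on the log2 scale with antibiotics (adjusted p = 3.94e-05 by limma) and by 0.96 without (adjusted p = 0.000524). Uhrf1, which maintains DNA methylation at replication (-1.29 and -1.21), Pcna, the polymerase clamp (-1.13 and -0.98), and Cdt1, which licenses origins (-1.57 and -1.07), fell as well, with adjusted p from 0.000329 to 0.00491 by limma. The 20 listed genes summed to 129, 125 and 134 RPKM in ABX 5-FU libraries and 313, 329 and 260 RPKM in ABX libraries. They summed to 176, 118 and 124 RPKM in Ctrl 5-FU libraries, and to 314, 220 and 269 RPKM in Ctrl libraries. The library with the highest S phase sum was also the one with the highest replication-dependent histone sum in each of the 4 groups. Of 10 mitosis genes, 6 fell in each comparison, against 16.5% of all features with and 11.8% without antibiotics. The S phase genes were chosen with earlier results of these data known, so their direction is not independent evidence.

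**Figure D5:**
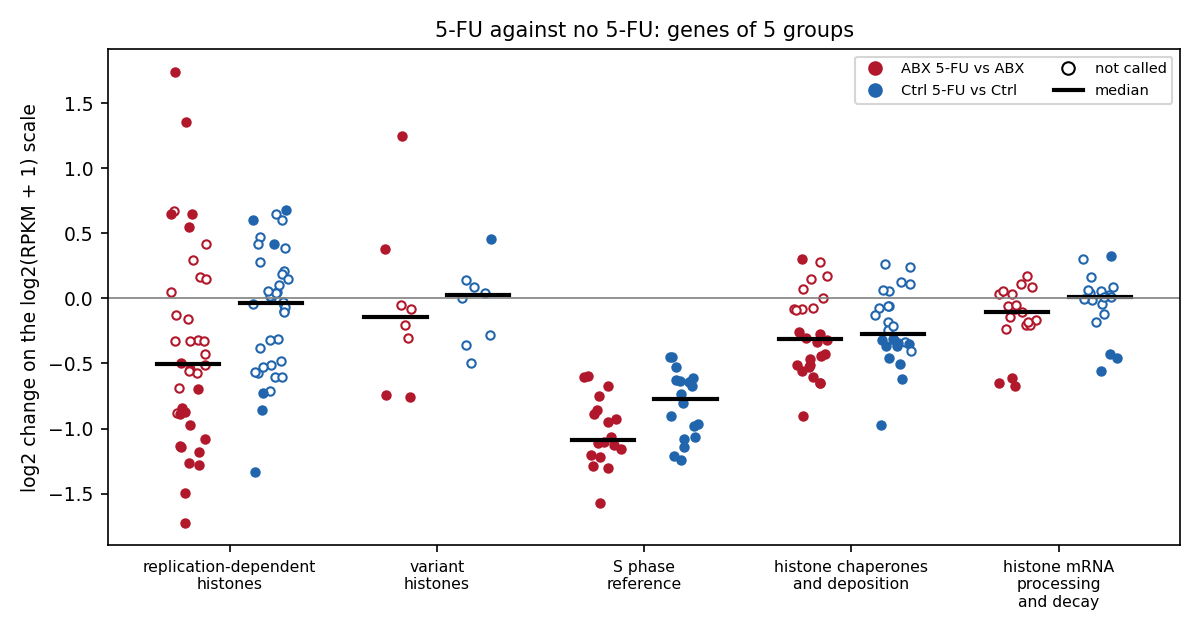
Log2 change after 5-FU (log2(RPKM + 1) scale) of the tested genes of 5 groups, in ABX 5-FU against ABX (red) and Ctrl 5-FU against Ctrl (blue), with filled points for adjusted p under 0.05 and bars for medians. The replication-dependent histones spread from -1.72 to 1.74 in red, whereas all 18 S phase genes lie below 0 in both colours.

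Of 10 further variant genes, 3 passed the filter. Cenpa, the H3 variant of centromeres, had 8.20, 9.32 and 9.93 RPKM in ABX 5-FU libraries against 5.51, 7.82 and 6.17 RPKM in ABX libraries, and rose by 0.44 on the log2 scale (adjusted p = 0.0314 by limma). That call was lost without ABX replicate 1 or 3, or ABX 5-FU replicate 2 or 3 (adjusted p of 0.0747 to 0.107), and in Ctrl 5-FU against Ctrl libraries the value was -0.16 (adjusted p = 0.442). H2afj, an H2A variant, had 18.8 to 33.2 RPKM over the 12 libraries and was not called. H3f3c averaged 384 ± 16.2 RPKM in ABX 5-FU, 431 ± 52.0 in ABX, 381 ± 33.9 in Ctrl 5-FU and 366 ± 21.9 in Ctrl libraries, with no call. It is annotated as a single exon that shares 73.8% of its 50-base stretches with other genes, most often H3f3a, so its level cannot be assigned to this locus alone. Of the others, 5 were listed at 0 in all 12 libraries (H2afb1, H2afb2, H2afb3, H1fnt and Hils1).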

How the data were processed

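RNA-seq of sorted HSCs was deposited as 1 table of RPKM, which the authors made from the reads. The mm10 build, Partek and STAR 2.5.3a are named in the submitters' processing notes. How reads were counted, on which strand and with which annotation is not given in the sources used here. A value of 0.0001 stands in the table in place of 0. Groups came from the titles, and the 12 libraries form 4 groups of 3.

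The 8553 of 46986 features that reached 1 RPKM in 3 or more libraries were tested on log2(RPKM + 1) with limma 3.58.1 in R 4.3.3, with a trended prior, 4 group means in 1 model and Benjamini-Hochberg adjustment over all 8553, at a threshold of 0.05. A log2 change on this scale understates the change of low genes. The procedure was tested on simulated data. Members with at least 5 RPKM in a group mean or with a call are described singly, as are Slbp, Npat, Asf1b, Chaf1a, Hira and up to 3 genes of each list with the smallest p in a 5-FU comparison. The members and lists were chosen with earlier results of these data known. Depth was estimated from what 1 read is worth. Of 155 low values of replication-dependent genes, 14.8% were whole reads within 0.05 reads, against 69.5% to 76.2% of low values of all features, so no count test was run. Every 5-FU library carries an i7 index that no library without 5-FU has, so index and 5-FU cannot be told apart. Transcript ends and shared 50-base stretches came from GENCODE M21, and promoters from RefSeq GRCm38.p6. Alternatives were another pseudocount, other filters, scalings and priors, the compared groups alone, the i7 index as a block, and each library left out.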

Additional observations from a re-analysis of the deposited data

Results flagged for a closer look

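The difference of H1f0 between antibiotic-treated mice and their controls ran in opposite directions without and with 5-FU. H1f0 was lower in each of the 3 ABX libraries (66.1 to 86.2 RPKM) than in any Ctrl library (92.2 to 97.7 RPKM), and higher in each of the 3 ABX 5-FU libraries (171 to 181 RPKM) than in any Ctrl 5-FU library (118 to 139 RPKM). The interaction on the log2(RPKM + 1) scale was 0.80 ± 0.14 (SE), with an unadjusted p of 0.000127 and an adjusted p of 0.361 over all features by limma, so it did not pass the correction. Without ABX replicate 3 it was 0.91 with an adjusted p of 0.0314.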

How the results depend on the processing

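No value described changed sign as a call under any alternative run. Without the filter on low values, 10 replication-dependent genes (5 higher, 5 lower) and 2 variants were called in ABX 5-FU against ABX libraries, and 3 replication-dependent genes in Ctrl 5-FU against Ctrl libraries, and the replication-dependent medians were -0.23 for ABX 5-FU against ABX and 0.23 for ABX against Ctrl. With a pseudocount of 0.1 these medians were -0.87 and 0.62. Scaled to one total, the median for ABX 5-FU against ABX was -0.36, the variant median for Ctrl 5-FU against Ctrl was 0.15 with 2 variants called, and 74.6% and 81.5% of calls over all features were higher, against 45.4% and 45.1% as deposited. Fitted on the compared groups alone, 2 replication-dependent genes were called in ABX against Ctrl (Hist1h2ab, adjusted p = 0.00178, and Hist2h2ac, 0.0101, by limma). With the i7 index as a block, 1 was called there (Hist1h2an, adjusted p = 0.0253) and 1 in ABX 5-FU against Ctrl 5-FU (Hist1h1c, 0.0239). The cause of these shifts was not tested. Leaving out 1 library at a time gave 10 to 21 replication-dependent and 2 to 5 variant calls in ABX 5-FU against ABX, 4 to 11 and 1 to 3 in Ctrl 5-FU against Ctrl, 0 to 3 replication-dependent calls in ABX against Ctrl, 0 to 1 in ABX 5-FU against Ctrl 5-FU, and 0 to 1 variant calls for the interaction. The replication-dependent median then ran from -0.57 to -0.36 in ABX 5-FU against ABX, -0.21 to 0.07 in Ctrl 5-FU against Ctrl, 0.38 to 0.49 in ABX against Ctrl and -0.051 to 0.20 in ABX 5-FU against Ctrl 5-FU. The variant median ran from -0.29 to -0.052 in ABX 5-FU against ABX, -0.082 to 0.082 in Ctrl 5-FU against Ctrl, 0.21 to 0.43 in ABX against Ctrl and 0.096 to 0.15 in ABX 5-FU against Ctrl 5-FU. Apart from the scaled fits, the shares of all features called under these alternatives are not given here. The counts under them thus describe the histone genes alone. Libraries could not be paired by animal or sample because the labels give no replicate numbers, and those used here only name libraries. The i7 block sets each ABX library beside the Ctrl library of the same index, and likewise with 5-FU. Whether such libraries share more than the index is not stated. The smallest histone genes rest on few reads that near-identical copies share.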
